A study of Papio hamadryas with 14 samples.

Results

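Salt, potassium and calcium transport genes of the thick ascending limb and the distal tubule were followed through development of the whole baboon kidney (Papio hamadryas). The set was chosen by gene symbol, with earlier results of these data known. It lists 9 genes, SLC12A1, KCNJ1, CASR, UMOD, EGF, SLC12A3, CALB1, PVALB and KCNJ16. Of these, 8 had a probe set under their symbol, out of 9580 named genes in the series, and together they had 10 probe sets. The annotation used paired no probe set with UMOD, alone or with other symbols, so uromodulin is not analysed here. The fetal kidneys came from 60, 90, 125 and 160 days of gestation (60dG, 90dG, 125dG and 160dG), with 2 arrays at 60dG and 3 at each later stage. The adult group had 3 arrays, from animals of 6, 12 and 7 years. No strain, genotype or treatment beyond the species is given in the labels, which call the fetal samples biological replicates. All samples were hybridised to human Affymetrix arrays, the fetal kidneys on 1 array type and the adult kidneys on another, so that age and array type cannot be told apart in any comparison with adults.

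The thick ascending limb reabsorbs salt without water and so builds the gradient on which urine concentration depends. Sodium, potassium and chloride enter its cells together through the cotransporter NKCC2, potassium returns to the lumen through the channel ROMK, and the voltage that results drives calcium and magnesium between the cells. The distal convoluted tubule that follows takes up sodium and chloride through the thiazide-sensitive cotransporter NCC, and it adjusts calcium and magnesium reabsorption. Both segments arise from the distal end of the nephron and mature after the nephron has formed.

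Values are probe set signals on a linear scale, and differences are on the scale of log2(signal + 16). Median signals were 210.2 to 214.4 on the adult arrays and 172.9 to 194.6 on the fetal arrays. The lower quartile of all signals lay between 101 and 104.4 on the adult arrays and between 74.12 and 86.6 on the fetal arrays. It serves below as a mark for dim signals. The ratio of the 3′ to the 5′ GAPDH control, which is higher where RNA is degraded, was 1.78, 2.46 and 3.43 on the 90dG arrays and 1.57 to 2.11 on all others. Stages were tested with limma over all 11 fetal arrays, with adjusted p-values taken over the 5278 genes that were on average brighter than the median probe set, a signal of 178. Only SLC12A1, KCNJ1 and CALB1 passed that filter, so the other 5 measured genes are given from a fit to all 9580 genes without it.

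The course over gestation was towards higher signal late in fetal life. SLC12A1 and KCNJ1 rose with gestational age, and CALB1 differed between stages with a low point at 90dG. EGF was near the lower limit of signal on the 8 arrays before 160dG and brighter at 160dG, but did not pass the test. SLC12A3, CASR, PVALB and KCNJ16 passed no comparison between fetal stages. In whole kidney, fewer cells of a type and less RNA per cell cannot be told apart.

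**Figure D1:**
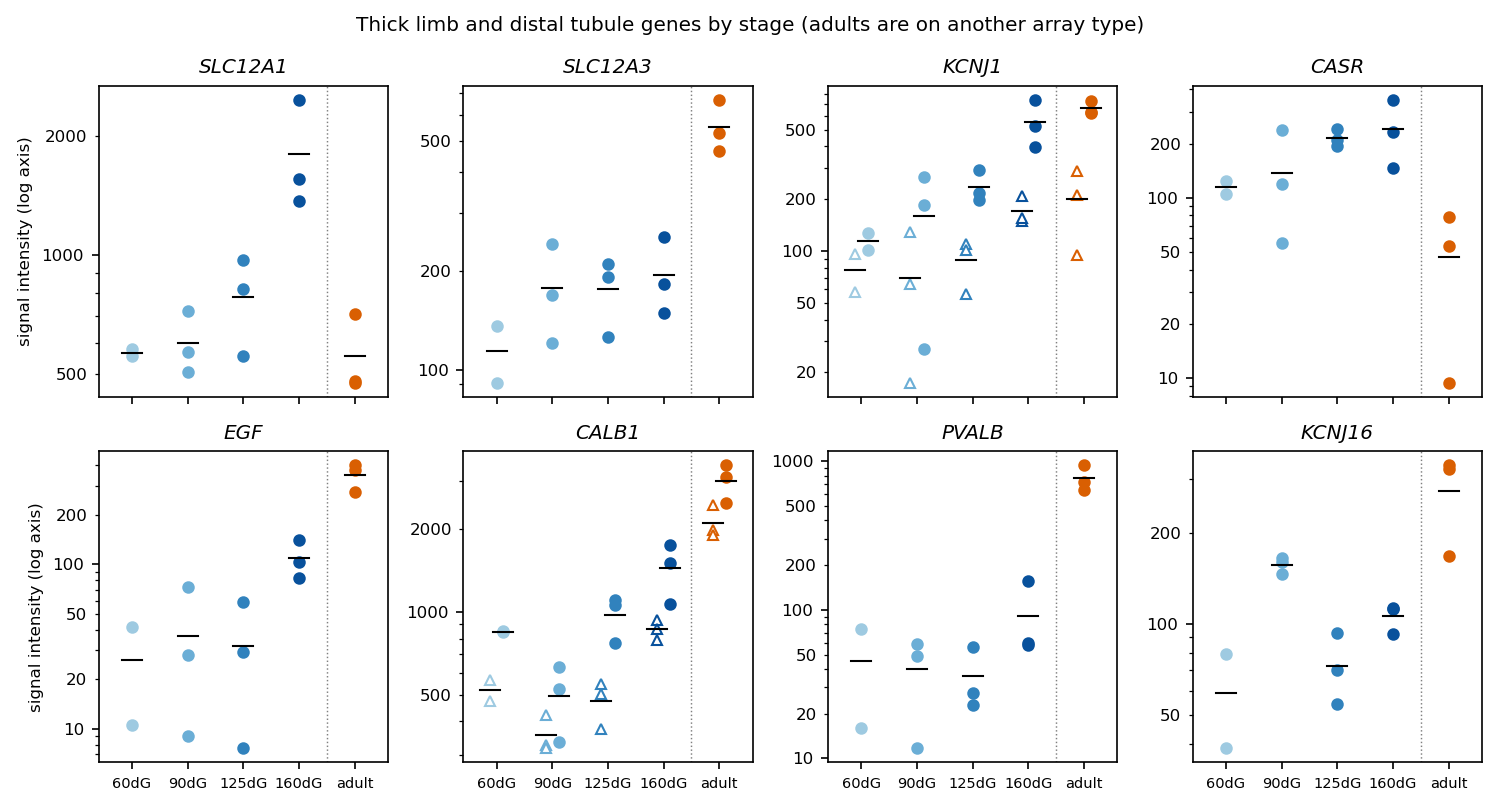
Signal of each measured gene (log axis) in every array at 60dG, 90dG, 125dG, 160dG and in adults; points are arrays and short lines are group means. For KCNJ1 and CALB1 the filled circles are the probe set used and the open triangles the other probe set; the dotted line separates the 2 array types. The 160dG arrays stand above all earlier fetal arrays for SLC12A1, KCNJ1 and EGF.

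SLC12A1 encodes NKCC2, the entry step for salt in the thick limb and the target of loop diuretics. Its signals were 553.1 and 578.2 at 60dG, 505.9, 723.2 and 567.6 at 90dG, 818.4, 974.3 and 553.4 at 125dG, and 2470.6, 1558.5 and 1370.8 at 160dG. Each 160dG array was above each of the 8 earlier arrays, while the 60dG, 90dG and 125dG arrays overlapped. The mean was 1800 ± 588.3 at 160dG (SD, n = 3) and 565.7 ± 17.75 at 60dG (SD, n = 2), a ratio of 3.18. On the log2 scale 160dG exceeded 60dG by 1.60 ± 0.27 (SE, limma adjusted p = 0.00157), and 365 of 5278 genes (6.92%) were called higher in that comparison. The slope was 0.16 ± 0.03 log2 per 10 days (limma adjusted p = 0.00335), a call made upward for 255 of 5278 genes (4.83%). Between 125dG and 160dG the difference was 1.18 ± 0.24 (SE, limma adjusted p = 0.0631), short of the threshold in a step where 4 of 5278 genes (0.0758%) were called higher. The slope and the difference between 160dG and 60dG passed under every alternative setting and with any single array left out.

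KCNJ1 encodes ROMK, which returns potassium to the lumen of the thick limb and secretes it further along the nephron. The brighter probe set, 210403_s_at, gave 100.9 and 127.2 at 60dG, 267.8, 184.5 and 27.2 at 90dG, 216.3, 290.6 and 196.9 at 125dG, and 739.7, 525.5 and 396.8 at 160dG. All 3 arrays at 160dG lay above the 8 earlier ones, and the widest spread was at 90dG, where the lowest value came from the array with the GAPDH ratio of 3.43. The mean was 554 ± 173.2 at 160dG (SD, n = 3) and 114 ± 18.6 at 60dG (SD, n = 2), a ratio of 4.86. The difference was 2.10 ± 0.57 on the log2 scale (SE, limma adjusted p = 0.0270) and the slope 0.23 ± 0.05 log2 per 10 days (limma adjusted p = 0.0136). KCNJ1 passed the filter of 7.60 through its 160dG arrays, since its log2 mean was 7.86 over all fetal arrays and 7.39 before 160dG. In the limma fit without the filter the adjusted p was 0.0433 for the difference and 0.0203 for the slope. The call between 160dG and 60dG was lost without 60dG array 1 (limma adjusted p = 0.174), 60dG array 2 (0.0944), 160dG array 1 (0.0924) or 160dG array 2 (0.0586), and the call of the slope without 160dG array 1 (0.0586). The second probe set, 210402_at, was dimmer and stayed below the filter. It gave 147.7, 206.0 and 153.9 at 160dG and 96.4 and 58.1 at 60dG, a ratio of means of 2.19. Of its 8 values before 160dG, 4 were under the lower quartile of their array. At 90dG it gave 17.3, 128.9 and 64.2, with the lowest value on the array with the GAPDH ratio of 1.78. The part of the GAPDH ratio in the 90dG values of KCNJ1 was not tested.

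CASR, the calcium-sensing receptor, lies on the basolateral side of thick limb cells, where it slows calcium and salt uptake when blood calcium is high. Its signals were 123.9 and 105.0 at 60dG, 238.0, 56.4 and 120.0 at 90dG, 194.4, 210.4 and 240.3 at 125dG, and 146.1, 348.7 and 233.2 at 160dG. The 160dG arrays were all above the 60dG arrays, whereas 90dG overlapped every other fetal stage. The mean was 242.7 ± 101.6 at 160dG (SD, n = 3) and 114.4 ± 13.36 at 60dG (SD, n = 2). The difference of 0.91 ± 0.45 on the log2 scale did not pass (SE, limma adjusted p = 0.293, all genes).

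EGF, the precursor of epidermal growth factor, is made in thick limb and distal convoluted tubule cells and acts on magnesium uptake in the distal convoluted tubule. Its signals were 10.5 and 41.6 at 60dG, 9.0, 72.8 and 28.0 at 90dG, 29.3, 58.8 and 7.6 at 125dG, and 141.2, 103.6 and 82.7 at 160dG. On all 8 arrays before 160dG the signal was under the lower quartile of the array, and all 3 at 160dG were above those 8. The means were 109.2 ± 29.64 at 160dG (SD, n = 3) and 26.05 ± 21.99 at 60dG (SD, n = 2), a ratio of 4.19 that rests on dim signals and was 2.62 without 60dG array 1 and 10.4 without 60dG array 2. The log2 difference was 1.65 ± 0.60 (SE, limma adjusted p = 0.13, all genes), and that between 160dG and 125dG was 1.51 ± 0.53 (SE, limma adjusted p = 0.567, all genes).

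In whole kidney the signal of a gene cannot be assigned to a single segment. The genes listed for the segment after the thick limb are SLC12A3, CALB1, PVALB and KCNJ16. Of these CALB1 was the only one bright enough to pass the filter, and it was the only one with a called difference between fetal stages. SLC12A3 and PVALB showed no called change between fetal stages, and KCNJ16 was brightest among fetal kidneys at 90dG without passing the test.

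SLC12A3 encodes NCC, the target of thiazide diuretics. Its signals were 91.0 and 136.2 at 60dG, 242.3, 120.7 and 168.4 at 90dG, 125.9, 209.9 and 191.5 at 125dG, and 253.8, 148.6 and 181.9 at 160dG. The 160dG values lay above both 60dG values and within the spread of 90dG and 125dG apart from the highest. The log2 difference between 160dG and 60dG was 0.69 ± 0.35 (SE, limma adjusted p = 0.313, all genes).

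CALB1 encodes calbindin-D28k, which buffers and carries calcium through distal tubule cells. The brighter probe set, 205626_s_at, gave 842.6 and 848.7 at 60dG, 335.4, 628.3 and 522.4 at 90dG, 1058.7, 1105.6 and 770.8 at 125dG, and 1513.6, 1072.0 and 1757.5 at 160dG. The 90dG arrays lay below all other fetal arrays, and those of 160dG and 125dG overlapped. The limma F over the 4 stages called CALB1 (adjusted p = 0.00406), SLC12A1 (0.00205) and KCNJ1 (0.0318), in a test that called 960 of 5278 genes (18.2%). KCNJ1 passed the filter through its 160dG arrays, and in the fit without the filter its F was not called (limma adjusted p = 0.0532). Without the 90dG arrays the F for CALB1 had an adjusted p of 0.103, and for KCNJ1 it was 0.0711 without 60dG array 1, 0.0568 without 60dG array 2, 0.108 without 160dG array 1 and 0.077 without 160dG array 2.

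Between 90dG and 125dG CALB1 rose by 0.99 ± 0.24 on the log2 scale (SE, limma adjusted p = 0.0335), against 135 of 5278 genes called higher (2.56%). That call was lost without 90dG array 1 (limma adjusted p = 0.0596) or 3 (0.0826), and without 125dG array 1 (0.1), 2 (0.0885) or 3 (0.066). It was lost too with eBayes without a trend (0.0512). With 90dG array 1 alone, the 90dG array with the lowest GAPDH ratio, the difference was 1.48 (limma adjusted p = 0.0436), a value that rests on 1 array and takes its spread from the other stages. Between 60dG and 90dG CALB1 differed by −0.80 ± 0.27 (SE, limma adjusted p = 0.0789), in a step that called 481 of 5278 genes in either direction (9.11%). The part of the GAPDH ratio in these 90dG values was not tested.

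From 60dG to 160dG the CALB1 slope was 0.12 ± 0.04 log2 per 10 days, which missed the threshold (SE, limma adjusted p = 0.0579). It passed without 60dG array 1 (0.0372) or 60dG array 2 (0.0358), and its adjusted p over all alternatives ran up to 0.18. The 160dG mean was 1448 ± 347.5 (SD, n = 3) and the 60dG mean 845.6 ± 4.31 (SD, n = 2), a log2 difference of 0.74 ± 0.27 (SE, limma adjusted p = 0.0934). It passed without 90dG array 1 (0.0456) or 160dG array 2 (0.0457), and its adjusted p over all alternatives ran up to 0.306. The second probe set, 205625_s_at, gave 938.1, 870.0 and 788.4 at 160dG and 563.6 and 472.7 at 60dG, without overlap. Fitted with all probe sets above the filter it differed by 0.72 (limma adjusted p = 0.0421), and without the filter the adjusted p was 0.0607. This probe set gave 501.7, 544.0 and 375.3 at 125dG and 327.6, 420.3 and 318.5 at 90dG, which overlapped. Its difference between 125dG and 90dG was 0.39 (limma adjusted p = 0.274, no filter), so the called step and the separation of 90dG from all other fetal arrays hold for 205626_s_at alone.

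PVALB encodes parvalbumin, a calcium-binding protein that marks the first part of the distal convoluted tubule in rodents. Its signals were 15.9 and 74.2 at 60dG, 59.0, 11.7 and 48.7 at 90dG, 27.5, 56.4 and 22.9 at 125dG, and 155.3, 58.2 and 59.9 at 160dG. Of the 11 fetal values, 10 were under the lower quartile of their array, so the fetal stages cannot be put in order at these signals. The log2 difference between 160dG and 60dG was 0.88 ± 0.58 (SE, limma adjusted p = 0.473, all genes).

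KCNJ16 encodes Kir5.1, a subunit of the basolateral potassium channel of distal convoluted tubule cells. Its signals were 38.7 and 79.5 at 60dG, 164.5, 145.9 and 160.2 at 90dG, 70.3, 54.4 and 92.8 at 125dG, and 92.3, 112.7 and 111.9 at 160dG. The 90dG arrays were above all other fetal arrays, a pattern that 438 of 9580 genes (4.57%) had. The 90dG mean was 156.9 ± 9.74 (SD, n = 3) and the 60dG mean 59.1 ± 28.85 (SD, n = 2), a log2 difference of 1.26 ± 0.35 (SE, limma adjusted p = 0.0589, all genes). Both 60dG values and 2 of the 3 at 125dG were under the lower quartile of their array. Of 18 alternatives 3 passed, with an adjusted p of 0.0472 at a pseudocount of 64, 0.0461 after quantile normalization and 0.0462 with eBayes without a trend, and the others ran up to 0.388, the value without 60dG array 1. The difference between 125dG and 90dG was −0.99 ± 0.31 (SE, limma adjusted p = 0.114, all genes). The 90dG group holds the arrays with the highest GAPDH ratios, 2.46 and 3.43, and their part in the KCNJ16 signal was not tested.

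The set was chosen with earlier results of these data known, so the shares and medians below describe it and do not test it. Read across the set, 160dG exceeded 60dG without overlap in 7 of the 8 measured genes, all but PVALB, while 1751 of 9580 genes (18.3%) did so. For EGF and KCNJ16 both 60dG values were under the lower quartile of their array, so that their place in this count rests on dim signals. The 3 arrays at 160dG lay above all 8 earlier arrays for SLC12A1, KCNJ1 and EGF, against 199 of 9580 genes (2.08%). The median log2 difference of the 8 genes between 160dG and 60dG was 0.90, and that of all 9580 genes 0.01. The difference was above 0 in all 8 genes, and in 50.7% of all genes. The slope was above 0 in all 8 as well, though that of KCNJ16, 0.02 per 10 days, was −0.03 without 60dG array 1.

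The steps between stages differed in size. The median of the 8 genes was 0.06 between 60dG and 90dG, 0.18 between 90dG and 125dG and 0.77 between 125dG and 160dG, against 0.03, −0.03 and 0.02 for all genes. The last step was 1.18 for SLC12A1, 1.16 for KCNJ1, 0.55 for CALB1, 0.13 for SLC12A3 and 0.09 for CASR. It was 1.51 for EGF, 0.99 for PVALB and 0.48 for KCNJ16, whose signals at 125dG were all or mostly under the lower quartile of their array. By limma, none of the 3 genes above the filter was called between 60dG and 90dG, and 1, CALB1, had an unadjusted p under 0.05, as had 25.9% of the 5278 genes. None of the 3 was called between 125dG and 160dG. There SLC12A1 and CALB1 had an unadjusted limma p under 0.05, as had 8.26% of the 5278 genes. So had KCNJ1, but it passed the filter through its 160dG arrays and is not counted against that share. The limma adjusted p in that step was 0.542 for KCNJ1 and 0.537 for CALB1. Neighbouring steps share the arrays of the stage between them, so their values are not independent.

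**Figure D2:**
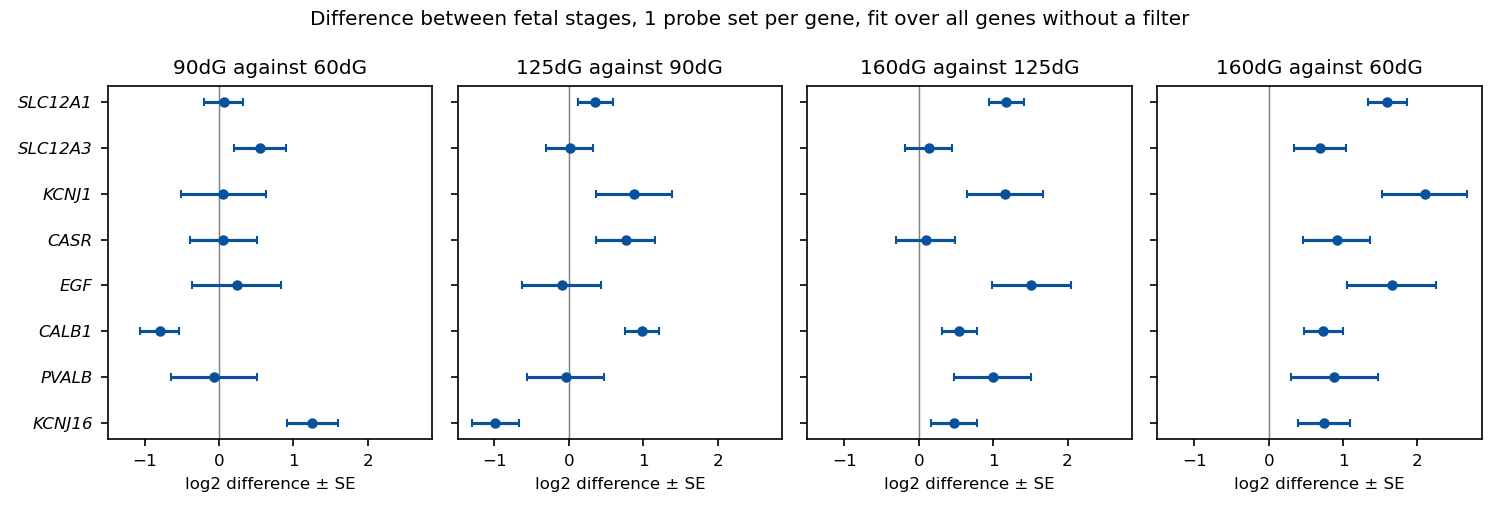
Log2 difference between fetal stages for each measured gene, as points with the SE of the limma fit to all 9580 genes; a positive value means higher at the later stage. In the step between 125dG and 160dG all 8 points are above 0, with 1.18 for SLC12A1 and 1.51 for EGF, and CALB1 and KCNJ16 lie on opposite sides of 0 in the first and in the second step.

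Adult kidney was set beside 160dG as a description only, with no test. SLC12A3, EGF, CALB1, PVALB and KCNJ16 were brighter in adults, at least 2-fold and without overlap, as were 1254 of 9580 genes (13.1%). SLC12A1 and CASR were dimmer in adults by the same criterion, as were 859 of 9580 genes (8.97%). KCNJ1 overlapped. The median adult difference of all genes was 0.12 on the log2 scale, and the median of the 8 genes was 1.13.

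PVALB had the largest adult difference of the set. Its adult signals were 644.1, 729.3 and 934.6, against 155.3, 58.2 and 59.9 at 160dG, and the ratio of means was 8.44, or 13 without 160dG array 1. The adult mean was 769.3 ± 149.3 (SD, n = 3), 17.1 times that at 60dG, a ratio that was 10.4 without 60dG array 1 and 48.4 without 60dG array 2. SLC12A3 gave 665.1, 464.8 and 526.1 in adults, each above all 11 fetal values, with a mean of 552 ± 102.6 (SD, n = 3) against 194.8 ± 53.77 at 160dG (SD, n = 3). The ratio was 2.83.

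CALB1 gave 3094.7, 3416.7 and 2497.1 in adults, with a mean of 3003 ± 466.6 (SD, n = 3), 2.07 times that at 160dG. Its other probe set had an adult mean of 2111 ± 294.1 and a 160dG mean of 865.5 ± 74.95 (SD, n = 3 each), a ratio of 2.44. Without 160dG array 2 the log2 difference of the first was 0.86, and without adult array 2 it was 0.96, both under 2-fold. KCNJ16 gave 167.2, 323.9 and 333.7 in adults, with a mean of 274.9 ± 93.43 (SD, n = 3), 2.60 times that at 160dG. Its log2 difference of 1.20 was 0.96 with a pseudocount of 64. EGF gave 397.9, 375.6 and 275.4 in adults, 3.20 times the 160dG mean. Each of these 3 genes was brighter on every adult array than on any fetal array.

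For the thick limb genes the adult values went different ways. SLC12A1 gave 706.9, 474.0 and 479.8 in adults, a mean of 553.6 ± 132.8 (SD, n = 3) that was 0.308 times the 160dG mean and 0.979 times the 60dG mean. Adult and 60dG values overlapped. CASR gave 54.1, 78.2 and 9.4 in adults, all under the lower quartile of their arrays, and its adult mean of 47.23 ± 34.91 (SD, n = 3) was 0.195 times that at 160dG. The log2 difference of −2.15 was −1.46 with a pseudocount of 64. KCNJ1 gave 626.3, 735.1 and 627.9 in adults, with a mean of 663.1 ± 62.36 (SD, n = 3), 1.20 times the 160dG mean and 5.81 times the 60dG mean. Its second probe set gave 287.3, 95 and 210.8 in adults, which also overlapped 160dG.

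**Figure D3:**
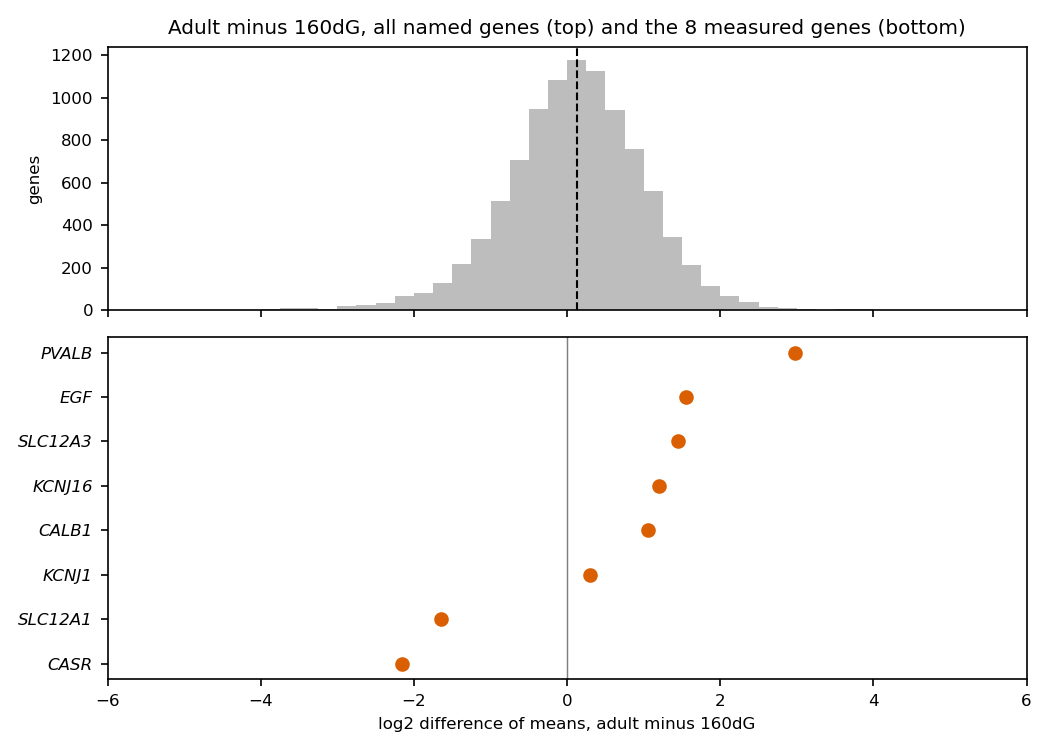
Log2 difference of means, adult minus 160dG, for all 9580 named genes as a histogram with the median of 0.12 as a dashed line (top), and for the 8 measured genes as points (bottom). PVALB lies at 2.97 and CASR at −2.15; array type changes together with age in every point.

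The order of stages by mean signal differed from gene to gene. EGF, KCNJ1, CALB1, SLC12A3, PVALB and KCNJ16 had their highest mean in adults, and SLC12A1 and CASR at 160dG. For SLC12A1 the order down was 160dG, 125dG, 90dG, 60dG and adult, with only 160dG apart from its neighbour. CASR had the same order, with only the adult group apart from its neighbour. KCNJ1 ran adult, 160dG, 125dG, 90dG and 60dG, with only 160dG and 125dG apart. For CALB1 the order was adult, 160dG, 125dG, 60dG and 90dG, with adult and 90dG each apart from the neighbouring group. By its other probe set 60dG came before 125dG, and adult and 160dG were apart while 90dG overlapped its neighbour. In SLC12A3 and PVALB only the adult group stood apart. In EGF adult and 160dG each stood above the next group, and in KCNJ16 adult and 90dG did.

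Other genes of these segments were counted from lists by function, which were also chosen with earlier results of these data known. Of 23 listed partners of the thick limb genes, 12 were measured and 9 passed the filter. Of those 9, 4 rose by slope and none fell, beside 4.83% and 4.91% of the 5278 tested genes, and 4 rose between 60dG and 160dG, beside 6.92%. PTGER3, the EP3 receptor for prostaglandin E2 that restrains thick limb salt uptake, had a slope of 0.22 ± 0.02 log2 per 10 days (SE, limma adjusted p = 3.64e-05). Its mean signal was 830.6 ± 177.3 at 160dG and 170 ± 5.02 at 60dG, on a probe set of a class (_x_at) that can take up related transcripts. ATP1B1, the beta subunit of the sodium pump, had a slope of 0.13 ± 0.02 (SE, limma adjusted p = 0.000893). ESRRG, a nuclear receptor, had 0.09 ± 0.02 (SE, limma adjusted p = 0.0114), and CLDN10, whose product forms sodium pores between thick limb cells, had 0.07 ± 0.02 (SE, limma adjusted p = 0.0297). The median slope of the 9 genes was 0.07, and that of all tested genes −6.61e-05.

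Of 18 listed genes of distal calcium and magnesium handling, 13 were measured and 6 passed the filter. None of the 6 was called by slope, and 2 were called higher at 160dG than at 60dG, beside 6.92% of all tested genes. KL, the coreceptor klotho, differed by 1.15 ± 0.33 (SE, limma adjusted p = 0.0388) and PTH1R, the parathyroid hormone receptor, by 1.14 ± 0.31 (SE, limma adjusted p = 0.0266). EGFR, the receptor for EGF, had a slope of 0.05 (limma adjusted p = 0.258), and ATP2B4, a plasma membrane calcium pump, one of 0.02 (limma adjusted p = 0.545). In adults 3 of the 13 were brighter than at 160dG by the criterion above, beside 13.1% of all genes, and 3 dimmer, beside 8.97%, EGFR among the dimmer with 336.9 ± 28.84 in adults and 924.7 ± 269.3 at 160dG (SD, n = 3 each).

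A list of 16 genes of cotransporter control, mainly kinases, ligases and steroid receptors, had 13 measured and 10 tested genes. It also held HSD11B2, which is on the collecting duct list below as well. Of the 10, 2 rose by slope, beside 4.83% of all tested genes, and none fell. NR3C2, the mineralocorticoid receptor, had a slope of 0.13 ± 0.02 log2 per 10 days (SE, limma adjusted p = 0.00316), with 493.5 ± 42.66 at 160dG and 188.6 ± 80.19 at 60dG. NEDD4L, a ubiquitin ligase that lowers NCC and the epithelial sodium channel at the cell surface, had 0.09 ± 0.02 (SE, limma adjusted p = 0.0173). NR3C1, the glucocorticoid receptor, had 0.11 (limma adjusted p = 0.0702) and KLHL3, the adaptor that hands WNK kinases to a ubiquitin ligase, had 0.06 (limma adjusted p = 0.206).

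Of 17 listed relatives of the SLC12, KCNJ and other families, 11 were measured, 4 were tested and none was called by slope or between 60dG and 160dG. SLC12A2, which encodes the NKCC1 cotransporter found outside the thick limb, had a slope of −0.03 (limma adjusted p = 0.629). SLC12A7, a potassium-chloride cotransporter, had −0.0035 (limma adjusted p = 0.958) and KCNJ2 0.01 (limma adjusted p = 0.824). KCNJ15, which encodes Kir4.2, had 0.07 (limma adjusted p = 0.0515).

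**Figure D4:**
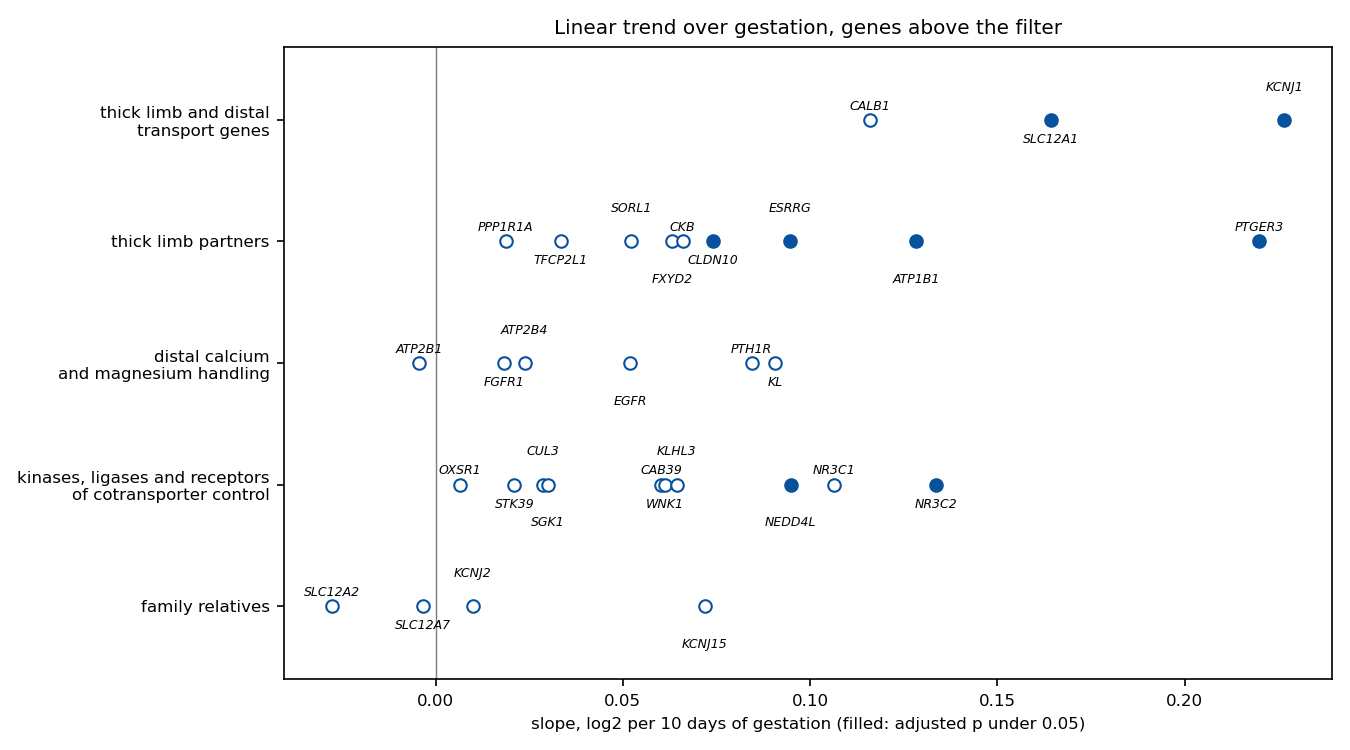
Slope over gestation in log2 per 10 days for SLC12A1, KCNJ1 and CALB1 and for the tested genes of the 4 lists; filled points had a limma adjusted p under 0.05. SLC12A1, KCNJ1 and PTGER3 lie at 0.16 or higher, and the family relatives lie at or under 0.07.

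Markers of other cells of the kidney moved over the same stages. The summed signal of 7 measured of 10 proximal tubule markers was 1721 to 2162 at 60dG, 5168 to 7469 at 90dG, 7079 to 8731 at 125dG, 6003 to 14598 at 160dG and 16516 to 17483 in adults, and 4 of 6 tested rose by slope, a call made upward for 4.83% of all tested genes. The sum of the 8 thick limb and distal genes was 1777 to 1991 at 60dG, 1642 to 1944 at 90dG, 2076 to 2960 at 125dG, 3928 to 5513 at 160dG and 5684 to 6598 in adults. The proximal sum was higher at 90dG than at 60dG, whereas that of the thick limb and distal genes overlapped between these stages. SLC12A1 and CALB1 made up most of the latter sum at 60dG, with means of 565.7 and 845.6, and CALB1 had a mean of 495.4 at 90dG. The log2 difference between 90dG and 60dG was above 0 in 6 of the 8 genes, beside 52.5% of all genes. For 4 of those 6 it was smaller than its SE, so the count is not read as a rise. These were SLC12A1 (0.07 ± 0.26), KCNJ1 (0.06 ± 0.57), CASR (0.06 ± 0.45) and EGF (0.24 ± 0.59). The sum does not stand for each gene. The difference between the lists was not tested.

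The 6 measured of 8 nephron progenitor markers summed to 3092 to 3648 at 60dG, 2549 to 2898 at 90dG, 1686 to 2128 at 125dG, 1285 to 1420 at 160dG and 758 to 990 in adults, and 3 of 3 tested fell by slope, beside 259 of 5278 genes (4.91%). The 8 cell cycle genes summed to 5677 to 6076 at 60dG, 3266 to 3629 at 90dG, 2156 to 2530 at 125dG, 902 to 1608 at 160dG and 838 to 1025 in adults, and 7 of 7 tested fell by slope, beside 4.91% of all tested genes. MKI67, among those 7, had a mean of 275.9 at 60dG and lay around or under the filter signal of 178 afterwards, with means of 193 at 90dG, 183.4 at 125dG and 125.8 at 160dG. Its place among the tested genes thus rests in part on the stage where it was brightest. MKI67 was brighter in adults (268.2) than at 160dG by the criterion above, while 3 of the 8 were dimmer, beside 8.97% of all genes. Renal stroma markers, 5 measured of 6, summed to 22164 to 23585 at 60dG, 25912 to 33931 at 90dG, 21482 to 22410 at 125dG, 16134 to 19152 at 160dG and 1286 to 2832 in adults, with 1 of 5 falling by slope, beside 4.91% of all tested genes. COL1A1 and COL3A1 made up most of the fetal sum, with means of 11090 and 6294 at 60dG and 7936 and 3614 at 160dG. Between 60dG and 160dG 2 of the 5 were called lower, beside 249 of 5278 genes. TCF21 was called higher, by 0.58 ± 0.15 (SE, limma adjusted p = 0.0232), beside 365 of 5278 genes. The progenitor, cell cycle and stroma sums moved against that of the thick limb and distal genes between 125dG and 160dG.

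Collecting duct markers, 7 measured of 11, summed to 4422 to 5008 at 60dG, 5047 to 5924 at 90dG, 4167 to 4904 at 125dG, 4185 to 4830 at 160dG and 2527 to 3380 in adults. Of 3 tested, 1 rose by slope, SCNN1A of the epithelial sodium channel, and 1 fell, the transcription factor GATA3. GATA3 made up most of the fetal sum, with a mean of 2574 at 160dG and 4003 at 60dG. SCNN1A had means of 652.5 at 160dG and 169 at 60dG. HSD11B2, the enzyme that inactivates cortisol, and SLC4A1, a chloride-bicarbonate exchanger, were under the filter and not tested. Their means were 486.2 and 239.9 at 160dG and 34.6 and 33.55 at 60dG, and they were picked after their values were seen. AQP3 and SLC26A4, also not tested, had means of 182 and 27.63 at 160dG and of 122.8 and 31.5 at 60dG. AQP2, the remaining tested marker, had means of 371.1 at 160dG and 320.5 at 60dG and was not called by slope (limma adjusted p = 0.487). Podocyte markers, 5 measured of 6, summed to 2138 to 4004 at 60dG, 2989 to 3394 at 90dG, 3474 to 3641 at 125dG, 2568 to 4279 at 160dG and 829 to 1143 in adults, with none of 4 called by slope. No measured marker of any list was at 0. The part of these other cells in the course of the thick limb and distal genes was not tested.

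The genes whose log2 signal followed SLC12A1, KCNJ1 and CALB1 most closely over the 11 fetal arrays are given as a description. The arrays share stage and RNA, so many genes that change with stage correlate. SLC12A1 was nearest to FGF9, a fibroblast growth factor (Pearson's r = 0.958, Spearman's rho = 0.982), ENPP4 (r = 0.938, rho = 0.873) and ACSL1 (r = 0.922, rho = 0.818). FGF9 had means of 245.2 at 60dG, 240.2 at 90dG, 305.2 at 125dG, 458.4 at 160dG and 316.7 in adults. KCNJ1 was nearest to TSC22D3, a glucocorticoid-induced gene (r = 0.949, rho = 0.964), TBC1D4 (r = 0.918, rho = 0.964) and ACSL1, an acyl-CoA synthetase (r = 0.91, rho = 0.936). ACSL1 had a mean of 3161 in adults and 486.4 at 160dG, unlike SLC12A1, which was dimmer in adults. CALB1 was nearest to SH3BGRL (r = 0.949, rho = 0.855), NFE2L2, a regulator of antioxidant genes (r = 0.947, rho = 0.945), and MBNL1, a splicing regulator (r = 0.935, rho = 0.809). These 3 had their lowest fetal mean at 90dG, as CALB1 had, with 972.2 for NFE2L2 at 90dG and 1355 at 60dG.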

How the data were processed

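Total RNA from whole kidney was labelled as biotinylated cRNA and hybridised to human arrays, per the labels. The authors used GCOS to obtain the deposited linear signal intensities, 1 per probe set, per the submitters' processing notes. Its version, algorithm and scaling were not given in the sources used here. Trimmed means differed by at most 1.07 times between arrays, so intensities were not rescaled. Of 16186 probe sets, 43 were controls, 14068 had 1 symbol in the platform annotation, 735 several and 1340 none. Each gene was tested on the probe set with the highest fetal mean of log2(signal + 16), above a median filter of 7.60. limma 3.58.1 in R 4.3.3 (lmFit, eBayes with an intensity trend) gave the F, slope and stage contrasts over 11 fetal arrays, and genes were called at a Benjamini-Hochberg adjusted p under 0.05. P-values measure the spread between these samples. Steps were tested on simulated data. The effect of baboon sequence on single human probes was not analysed here. The genes named were all 9 listed, up to 4 tested genes per list by function with the largest slope, and for each gene above the filter the 3 most correlated genes. Single markers of other cells were named outside this rule, HSD11B2 and SLC4A1 after their values were seen. The members and lists were chosen with earlier results of these data known. Alternatives were the pseudocount, filter, normalization, probe set, array weights, replicate block and left-out arrays.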

Additional observations from a re-analysis of the deposited data

How the results depend on the processing

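With 2 or 3 arrays per stage, the number of genes called among the 8 is small and single arrays decide part of it. Against 2 called by slope and 2 between 60dG and 160dG, a filter at the 0.75 quantile left 1 in each, since KCNJ1 was then not tested, and leaving out 1 array at a time gave 1 to 3 in each. Against 1 called between 90dG and 125dG (CALB1), eBayes without a trend gave 0 (limma adjusted p = 0.0512), the replicate block 0 (0.0526), and leaving out 1 array at a time 0 to 1. Without the filter KCNJ1 lost its F call (0.0532), and array weights brought CALB1 past the threshold by slope (0.0468). The counts for the F, for 60dG to 90dG and for 125dG to 160dG, and the 6 to 7 genes apart between adult and 160dG, stayed within 1.5 times under all alternatives run, and no called value changed sign. Samples with the same replicate number did not deviate together (r = −0.114 to 0.179 over 15 pairs, and −0.179 to 0.165 over 30 pairs with different numbers), so the numbers were not taken to pair the samples, and the block changed no other call among these genes. Where 1 array of a stage was left alone, it was assumed to vary like the other stages. Scaling arrays to a common trimmed mean put the median adult difference of all genes at 0.18 and quantile normalization at 0.07, with the 8 genes keeping their directions. EGF and PVALB before 160dG, CASR in adults and KCNJ16 at 60dG and 125dG lie at signals too dim to order.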
